A study of Mus musculus with 18 samples.

Results

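A set of 10 genes of the bone morphogenetic protein (BMP) pathway was followed across mouse epidermal cells that did or did not carry Zfp36, the gene for the mRNA decay factor tristetraprolin (TTP). They are the ligand genes Bmp2, Bmp4, Bmp6, Bmp7, Bmp8a, Bmp3 and Gdf10, the receptor gene Bmpr1a, and the antagonist genes Bambi and Nog. They make up 10 of the 52636 genes counted, picked by symbol because Bmp3 and Gdf10 had been seen to differ between genotypes in these same libraries. Differences between genotypes are therefore described for all 10 genes without a test. Changes between stages within a genotype were tested, with the reservation that the tests on Bmp3 use libraries in which it was noticed, while Gdf10 is described by its counts.

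All mice were on a C57BL/6 background, and the study's methods put them at 8 weeks of age when treatment began. Controls carried loxP-flanked Zfp36 alleles and no Cre (fl/fl). Their ΔK14 littermates carried the same alleles plus Cre driven by the human keratin 14 promoter, which acts in basal keratinocytes of epidermis and follicle. Mock skin received no carcinogen, treated skin was nontumoral skin beside tumors after the mutagen DMBA and the tumor promoter TPA, and tumors were papillomas from the same protocol. The methods describe cells sorted as EpCAM+ and negative for CD45, CD140a and CD31, whereas whole skin is the source in the labels. For the treated libraries the labels also give tumoral keratinocytes that were treated as the cell type, while the methods and the extraction protocol name skin adjacent to the tumors, so how far treated libraries are free of tumor cells is not settled by these sources. Each genotype gave 3 columns per stage. The columns of mock ΔK14 replicates 2 and 3 were identical in all 52636 genes, so they enter as a single library. The mock ΔK14 group thus has n = 2, and 17 libraries were used. Nothing states whether replicates came from separate mice, so the p-values measure the spread between these libraries only.

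BMPs are secreted dimers that bind type I receptors such as BMPR1A together with type II receptors, after which SMAD1, SMAD5 and SMAD9 are phosphorylated and carry the signal to genes such as Id1, Id2, Id3 and Msx2. Secreted proteins such as noggin and follistatin hold ligands away from receptors, and BAMBI is a membrane pseudoreceptor without a kinase. In skin, BMP signals are known for keeping follicle stem cells at rest and for driving differentiation of the hair shaft in the growing follicle. BMP3 is known as an atypical member that can oppose other BMPs.

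TTP binds AU-rich elements in 3′ untranslated regions (3′UTRs), so the sites that match its core motif are shown first, because their number differs among the members. The heptamer UAUUUAU was searched in the RNA sense of the longest annotated 3′UTR of each gene, and it occurred in 27.6% of 20939 genes. It holds the pentamer AUUUA and lies within the longer nonamer UUAUUUAUU, found in 7.7% of genes. Among the 10 genes, Bmp2 had 4 heptamers, Bmp4, Bmp7 and Nog had 2 each, and the other 6 had none. In the lines here capitals mark the heptamer, and the coordinates (mm10) give its position in 30 bases of RNA, read 5′ to 3′, on the plus strand for Bmp2 and on the minus strand for the other genes.
Bmp2, chr2:133561831-133561837: aaugaagacuuUAUUUAUggaauggaaugg
Bmp2, chr2:133561876-133561882: uuuugaaaauaUAUUUAUaucuacgaaaag
Bmp2, chr2:133562017-133562023: gaguuauuuugUAUUUAUuuacuauuauaa
Bmp2, chr2:133562068-133562074: uaguuaauuugUAUUUAUauguaaucagaa
Bmp4, chr14:46383626-46383632: caccuugaccuUAUUUAUgacuuuacgugc
Bmp4, chr14:46383568-46383574: uuugacaaauaUAUUUAUaacuacauauua
Bmp7, chr2:172868231-172868237: gacaaagaaauUAUUUAUuuccaucugaag
Bmp7, chr2:172868139-172868145: uuauuuaagacUAUUUAUuaacaguuggac
Nog, chr11:89300959-89300965: uguuaaccugcUAUUUAUaucccaguaccc
Nog, chr11:89300709-89300715: agaguaucugcUAUUUAUucuuuauaauau

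The first Bmp7 site listed was the only nonamer. The 4 Bmp2 sites fell within bases 116 to 359 of a 3′UTR of 1170 bases. Among 3′UTRs within 20% of that length, 29.1% held a heptamer, against 7.8% at the length of Bmp4 (339 bases), 42.5% at that of Bmp7 (2125 bases) and 18.0% at that of Nog (684 bases). Bmp3, with 4534 bases, and Gdf10, with 3470 bases, held no heptamer, although 63.9% and 57.1% of 3′UTRs of like length did. A match gives letters in a window and is no evidence of binding. Only these motifs were searched.

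Total counts ran from 2808550 to 9617985 per library. Zfp36 had group means from 216 to 495 CPM (TMM-normalized read count scaled to library size) in fl/fl cells and from 13.8 to 27.9 CPM in ΔK14 cells, and every ΔK14 library lay below every fl/fl library. The 5 keratinocyte markers (Epcam, Krt5, Krt14, Krt1, Krt10) were detected in all groups, with a summed level of 2747 to 29390 CPM. In each genotype mock replicate 1 differed from the rest of its group. Its summed level of 6 markers of growing-follicle matrix and hair shaft (Krt35, Krt71, Krt25, Hoxc13, Msx2, Lef1) was 1532 CPM in fl/fl and 1578 CPM in ΔK14, against 10.7 to 16.5 CPM in the other mock libraries. It was low in the keratinocyte markers, at 2833 and 2747 CPM against 16060 to 19490 CPM. Bulge markers (Cd34, Lgr5, Lhx2, Sox9, Krt15) summed to 438.5 and 496.1 CPM in it, against 1651 to 2641 CPM. Melanocyte markers (Dct, Tyrp1, Pmel, Mlana, Tyr) summed to 318 and 278 CPM, against 41.0 to 92.9 CPM. Treated libraries held 356 to 991 CPM of these markers, and tumors held 7.51 to 69.9 CPM in fl/fl and 4.74 to 6.52 CPM in ΔK14. In these bulk libraries, fewer cells of a type and less RNA per cell cannot be told apart. The smallest library, with 19219 genes detected, was replicate 1 of the fl/fl tumors. Of 6 leukocyte markers, the summed level was 55.9 to 84.1 CPM in ΔK14 tumors and 11.1 to 31.1 CPM in fl/fl tumors. Treated ΔK14 replicate 3 stood apart at 172 CPM, against 8.58 and 13.9 CPM in the other treated ΔK14 libraries.

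Per kilobase of exon, Bmpr1a had the highest median level over the 17 libraries at 31.9 CPM per kb. Bmp7 followed at 13.3, Bmp2 at 8.80 and Bmp4 at 8.76 CPM per kb. Bambi (1.47), Bmp3 (1.28) and Bmp6 (1.165 CPM per kb) came next, then Bmp8a (0.561), Nog (0.384) and Gdf10 (0.0343 CPM per kb). Bmpr1a lay above Bmp7 in every library, but not above every ligand gene. In mock ΔK14 skin Bmp4 had a mean of 29.8 CPM per kb and Bmpr1a one of 27.7 CPM per kb. Bmp2 exceeded Bmpr1a in the ΔK14 tumor where Bmp2 was highest. Bmp2 and Bmp4 overlapped in range, as did Bambi, Bmp3 and Bmp6, and as did Bmp8a, Nog and Gdf10. Neighboring sets overlapped as well, and Bmp2 also overlapped Bmp7. Beyond Bmpr1a above Bmp7, the order of neighboring medians is thus not separated by the spread between libraries.

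**Figure D1:**
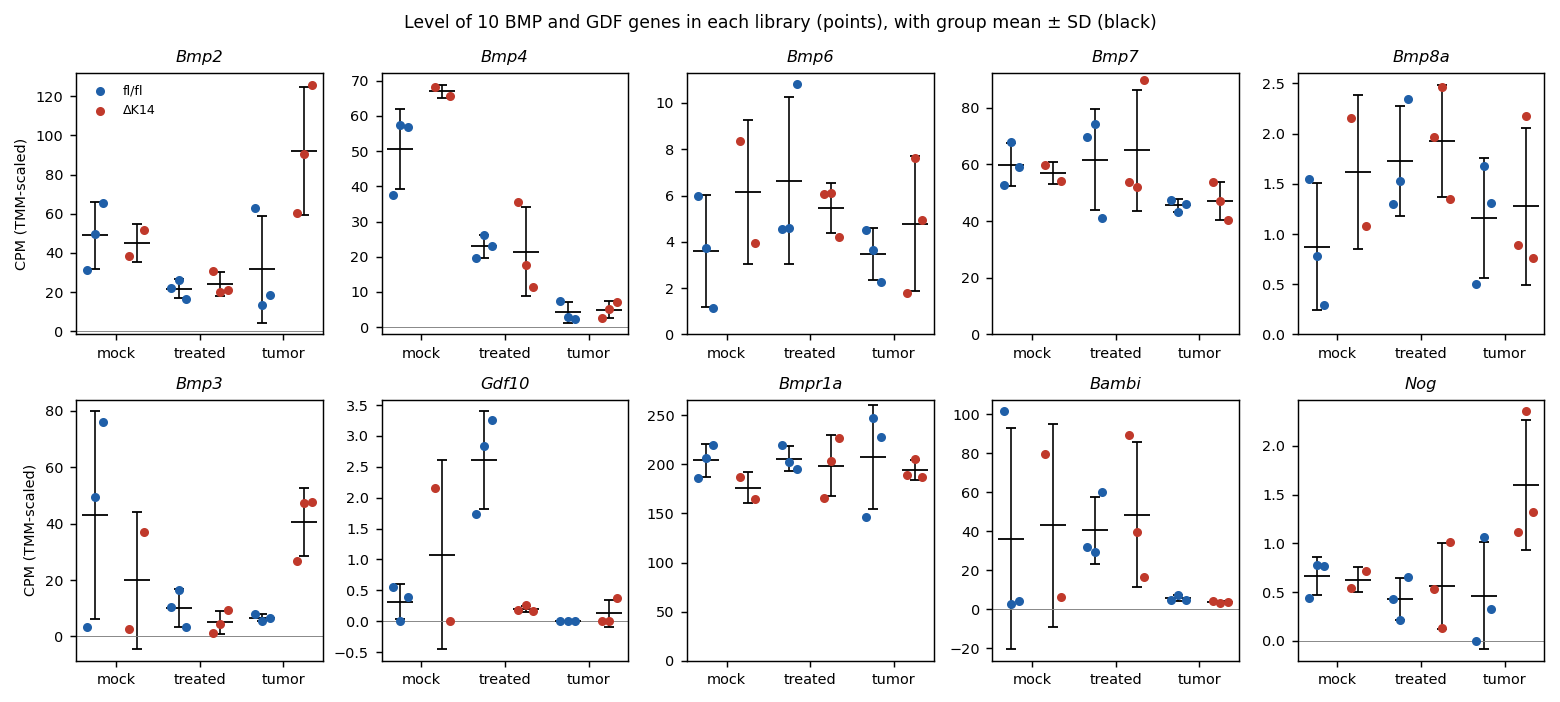
Level of each of the 10 genes in TMM-scaled CPM (linear axes, a scale of its own per gene), with 1 point per library and the group mean ± SD in black, for mock, treated and tumor cells of fl/fl (blue) and ΔK14 (red) mice. Bmp4 and Bambi were low in all 6 tumor libraries, Bmp3 was high in ΔK14 tumors at 26.8 to 47.6 CPM, and Gdf10 was highest in treated fl/fl skin.

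Within a genotype, no member was called between treated and mock skin, while Bmp4 was called lower in tumors in each of 4 comparisons with skin. A gene was called at an edgeR adjusted p under 0.05 and a fold over 2. Treated against mock fl/fl skin gave 0 calls among 9 tested members, with 3 at an unadjusted p under 0.05 and 2 calls by DESeq2, where edgeR called 0% and DESeq2 0.711% of 16601 genes. In ΔK14 mice this comparison gave 0 calls among 8 tested members, with 2 at an unadjusted p under 0.05 and 0 calls by DESeq2, with 0% and 0.447% of all genes called. Fl/fl tumors against mock skin gave 1 lower call among 7 members, beside 4.11% of all genes and 1.88% called lower. Fl/fl tumors against treated skin gave 3 lower calls among 8 members (Bmp4, Gdf10 and Bambi), beside 18% of all genes and 10.5% called lower. ΔK14 tumors against mock skin gave 2 lower calls among 7 members (Bmp4 and Bambi), beside 14.3% of all genes and 7.22% called lower. ΔK14 tumors against treated skin gave 4 calls among 8 members, with Bmp2 and Bmp3 higher and Bmp4 and Bambi lower, beside 26% of all genes, 10.5% called higher and 15.5% lower. Each of these 4 genes was also called without any 1 library. For Bmp3 the high group is the ΔK14 tumors in which it was noticed, so its call is not independent of its choice. Several of these counts changed when single libraries were left out, as did the share of all genes called. Without mock fl/fl replicate 1, 5 members were called between treated and mock fl/fl skin (Bmp2, Bmp3 and Bmp4 lower, Gdf10 and Bambi higher) beside 15.1% of all genes. In fl/fl tumors against mock skin 2 were then called, beside 21%. That count was 0 without mock replicate 2 or 3 (0.181% and 0.31% of all genes called) and without tumor replicate 2 or 3 (0.492% and 0.406%). In ΔK14 tumors against mock skin 1 was called without mock replicate 1 (28.1% of all genes) or tumor replicate 1 or 3 (2.75% and 1.51%), 0 without tumor replicate 2 (0.709%) and 4 without mock replicate 2 (22%). Nog passed the count filter in none of the comparisons, and Gdf10 and Bmp8a passed it in some, so these counts do not cover all 10 genes. Where Gdf10 is counted, it passed through the group in which it is high, and its calls are no test.

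**Figure D2:**
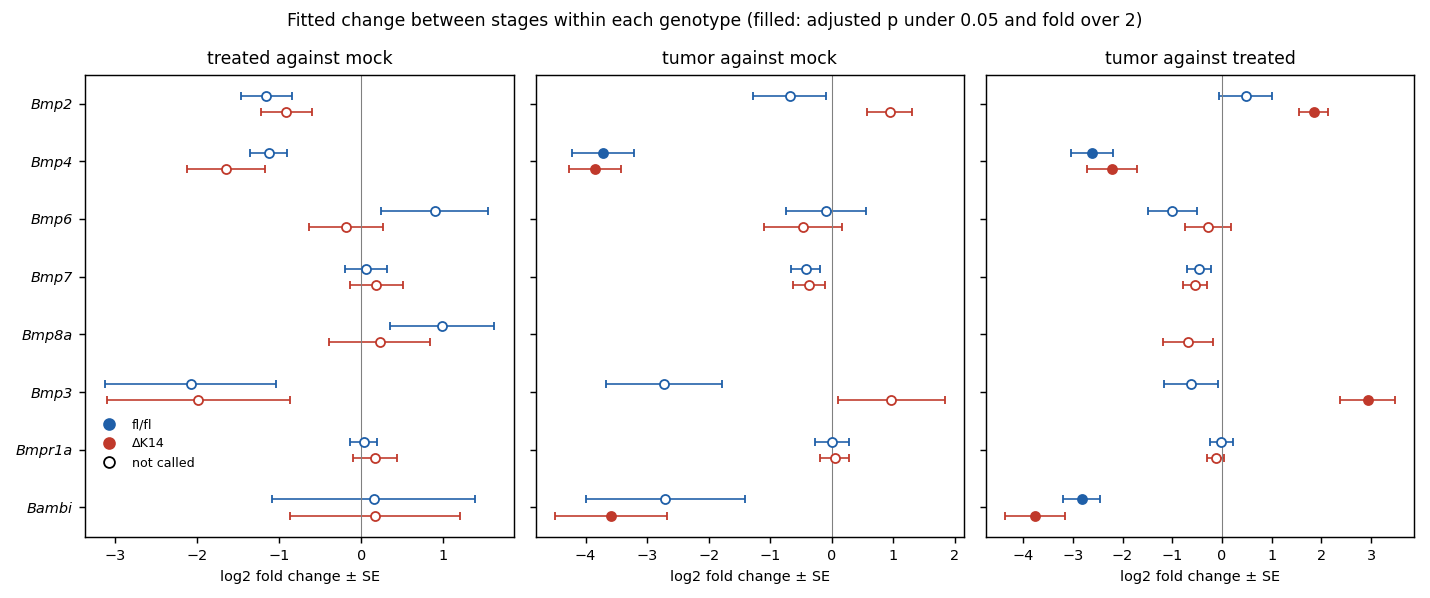
Fitted log2 fold change ± SE of 8 members between stages, within fl/fl (blue) and ΔK14 (red) mice, filled where the adjusted p was under 0.05 and the fold over 2. Gdf10 and Nog are left out for their low counts, and Bmp8a lacks points where it was not tested. Bmp4 lay at −3.72 and −3.85 in tumors against mock skin, and Bmp2 and Bmp3 were filled on the higher side only in ΔK14 tumors against treated skin.

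Bmp2 (ENSMUSG00000027358, chromosome 2, 133552159 to 133562885, plus strand) encodes a ligand that acts through BMPR1A. Mock fl/fl libraries held 31.3, 49.9 and 65.4 CPM and mock ΔK14 libraries 38.3 and 51.7 CPM. Treated fl/fl libraries held 22.1, 26.2 and 16.5 CPM and treated ΔK14 libraries 30.9, 19.9 and 21.1 CPM. In both genotypes every treated library lay below every mock library of its genotype. The log2 fold change was −1.16 (SE 0.31, edgeR adjusted p = 0.652) in fl/fl and −0.92 (SE 0.31, edgeR adjusted p = 0.914) in ΔK14, and neither was called. The fl/fl change was called when mock replicate 1 was left out (−1.40, edgeR adjusted p = 0.00536).

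In tumors, Bmp2 stood at 63.1, 13.4 and 18.6 CPM in fl/fl and at 60.3, 90.7 and 125.7 CPM in ΔK14 mice. All 3 ΔK14 tumors were above all treated ΔK14 libraries, and Bmp2 rose by 1.84 on the log2 scale (SE 0.29, edgeR adjusted p = 0.00230). The fl/fl tumors overlapped treated fl/fl skin (0.48, SE 0.54, edgeR adjusted p = 0.541), and without fl/fl tumor replicate 1 the sign turned (−0.47). Between tumor genotypes the difference was 1.46 (SE 0.55, described without a test), and the groups overlapped through fl/fl tumor replicate 1. Without that library it was 2.44. The step from treated skin to tumor differed by 1.39 between genotypes (SE 0.66, also without a test). Against mock skin, ΔK14 tumors differed by 0.94 (SE 0.36, edgeR adjusted p = 0.120) with no overlap, which was called without a low-count filter (edgeR adjusted p = 0.0292) or without mock ΔK14 replicate 2 (edgeR adjusted p = 0.0483).

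Bmp4 (ENSMUSG00000021835, chromosome 14, 46383520 to 46390669, minus strand) encodes the closest relative of BMP2 in this set. Mock fl/fl libraries held 37.6, 57.5 and 57.0 CPM and mock ΔK14 libraries 68.3 and 65.7 CPM. Treated libraries held 19.7, 26.2 and 22.9 CPM in fl/fl and 35.6, 17.5 and 11.3 CPM in ΔK14. Tumors held 7.51, 2.74 and 2.29 CPM in fl/fl and 2.46, 5.07 and 7.20 CPM in ΔK14. The 3 stages did not overlap within either genotype, with mock skin highest and tumors lowest. Against treated skin Bmp4 fell by 2.61 in fl/fl tumors (SE 0.42, edgeR adjusted p = 0.00598) and by 2.21 in ΔK14 tumors (SE 0.49, edgeR adjusted p = 0.00925). Against mock skin it fell by 3.72 in fl/fl tumors (SE 0.50, edgeR adjusted p = 0.0150) and by 3.85 in ΔK14 tumors (SE 0.42, edgeR adjusted p = 0.00709).

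The Bmp4 calls against mock skin were lost in some fits without 1 library. The fl/fl call was lost without mock replicate 2 or 3 or tumor replicate 2 or 3 (edgeR adjusted p from 0.0610 to 0.0798), and the ΔK14 call without tumor replicate 2 (edgeR adjusted p = 0.0610), with changes of −3.42 or larger in size. The share of all genes called was also lower in these fits. It was 0.181% to 0.492% against 4.11% in fl/fl, and 0.709% against 14.3% in ΔK14. The steps from mock to treated skin, −1.13 (SE 0.23, edgeR adjusted p = 0.402) in fl/fl and −1.65 (SE 0.48, edgeR adjusted p = 0.770) in ΔK14, were not called. DESeq2 called the fl/fl step (adjusted p = 0.0113), and edgeR called it without mock fl/fl replicate 1 (adjusted p = 0.00243). The summed level of 6 fibroblast and dermal papilla markers (Pdgfra, Col1a1, Col1a2, Col3a1, Dcn, Lum) was 505 to 1671 CPM in mock skin, 375 to 952 CPM in treated skin, 82.6 to 196.6 CPM in fl/fl tumors and 30.3 to 385.5 CPM in ΔK14 tumors, with no marker at 0. Against mock skin 4 of the 6 were called lower in fl/fl tumors (median −2.77) and 1 in ΔK14 tumors (median −0.9997). Against treated skin 2 were called lower in fl/fl (median −0.85) and 1 in ΔK14, where 3 of 6 were above 0 and the median was −0.01. Their part in the Bmp4 change was not tested. Exons of Bmp4 overlap Gm15217 on the opposite strand, so reads of the pair cannot be told apart where strand was not used.

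Bmp7 (ENSMUSG00000008999, chromosome 2, 172868012 to 172940321, minus strand), a ligand that signals through several type I receptors, had the narrowest relative range of the 7 ligand genes. Its level ran from 40.4 to 89.7 CPM over all libraries. The fl/fl groups stood at 59.9 ± 7.60 CPM in mock skin, 61.7 ± 17.9 CPM in treated skin and 45.6 ± 2.30 CPM in tumors (SD, n = 3 each). The ΔK14 groups stood at 56.9 ± 3.80 (n = 2), 65.0 ± 21.4 and 47.1 ± 6.70 CPM (n = 3 each). Tumors lay below mock skin without overlap in both genotypes, by −0.42 (SE 0.23, edgeR adjusted p = 0.295) and −0.37 (SE 0.26, edgeR adjusted p = 0.350), and neither was called.

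Bmp6 (ENSMUSG00000039004, chromosome 13, 38345107 to 38500302, plus strand), a close relative of Bmp7, had low levels. They ran from 1.16 to 10.8 CPM, on 7 to 83 counts per library. No change of Bmp6 was called, the largest in size being −0.998 in fl/fl tumors against treated skin (SE 0.49, edgeR adjusted p = 0.163). Its exons overlap Txndc5 on the opposite strand. Bmp8a (ENSMUSG00000032726, chromosome 4, 123312645 to 123343252, minus strand) held 1 to 19 counts per library and 0.289 to 2.47 CPM. It was tested in 3 of the stage comparisons and called in none. Reads of Bmp8a are uncertain because of its near copy Bmp8b.

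Bmp3 (ENSMUSG00000029335, chromosome 5, 98854415 to 98884396, plus strand) showed a split within mock skin and a genotype difference in tumors. Mock fl/fl libraries held 3.32, 49.5 and 76.1 CPM and mock ΔK14 libraries 2.70 and 37.0 CPM. The low value in each genotype belonged to mock replicate 1, the library rich in growing-follicle markers. Treated libraries held 10.4, 16.6 and 3.25 CPM in fl/fl and 1.07, 4.42 and 9.44 CPM in ΔK14. Tumors held 8.01, 5.48 and 6.53 CPM in fl/fl and 26.8, 47.4 and 47.6 CPM in ΔK14. The lowest ΔK14 tumor thus lay above the highest fl/fl tumor, whereas the genotypes overlapped in mock and in treated skin.

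The difference of Bmp3 between tumor genotypes was 2.496 on the log2 scale (SE 0.31), one of the values that led to its choice. It ran from 2.35 to 2.74 when single tumor libraries were left out. The corresponding differences were −1.08 (SE 1.47) in mock skin and −1.01 (SE 0.72) in treated skin. From treated skin to tumors Bmp3 rose by 2.93 in ΔK14 mice (SE 0.55, edgeR adjusted p = 0.00467) and stayed called in the 6 fits without 1 library (edgeR adjusted p from 0.00136 to 0.0257). The high group in this step is the same ΔK14 tumors, so neither the call nor its stability is independent of the choice of Bmp3. In fl/fl mice the same step was −0.62 (SE 0.54, edgeR adjusted p = 0.429). The steps differed by 3.57 between genotypes (SE 0.86, described without a test). ΔK14 tumors, at 26.8 to 47.6 CPM, overlapped the mock libraries other than replicate 1, at 37.0 to 76.1 CPM. Against mock skin, the ΔK14 difference was 0.96 (SE 0.87, edgeR adjusted p = 0.473) and it was called without mock replicate 2 (3.89, edgeR adjusted p = 0.00117). In fl/fl it was −2.73 (SE 0.94, edgeR adjusted p = 0.121), called by DESeq2 (adjusted p = 0.0188) and without mock replicate 1 (−3.28, edgeR adjusted p = 0.00191).

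Gdf10 (ENSMUSG00000021943, chromosome 14, 33923587 to 33937983, plus strand), the closest relative of Bmp3, had the lowest level of the set and is given in counts. In treated skin 16, 13 and 25 counts were found in fl/fl and 1, 2 and 1 in ΔK14. Mock fl/fl libraries held 5, 0 and 4 counts, mock ΔK14 libraries 8 and 0, the 3 fl/fl tumors 0, and the ΔK14 tumors 0, 0 and 2. Every treated fl/fl library thus held more counts than any other library, while in CPM mock ΔK14 replicate 1 (2.16) exceeded treated fl/fl replicate 1 (1.73). The summed share of counts in treated skin was 12.8 times higher in fl/fl than in ΔK14 (54 against 4 counts). These are the values that led to its choice.

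Between stages the same treated fl/fl libraries are the high group, and Gdf10 passed the count filter in fl/fl tumors against treated skin only through them, so its stage differences are given as values. Treated fl/fl skin held 54 counts in all and fl/fl tumors 0 of 13240834, which allows up to 0.227 CPM (3 counts over the group, counting error only). Mock fl/fl skin held 9 counts, and the share in treated skin was 7.46 times higher. In ΔK14 mice 4 counts in treated skin and 2 in tumors gave a ratio of 2.32 (exact 95% interval 0.332 to 25.6, counting error only), which this depth cannot separate from no difference.

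Bmpr1a (ENSMUSG00000021796, chromosome 14, 34410734 to 34503341, minus strand), the main type I BMP receptor of skin epithelium, had the narrowest relative range of the 10 genes. Its level ran from 146.7 to 246.7 CPM, and both ends belonged to fl/fl tumors. Group means lay at 204 ± 17.1, 205.5 ± 12.6 and 207 ± 53.1 CPM in fl/fl mock skin, treated skin and tumors (SD, n = 3 each). In ΔK14 they lay at 176 ± 15.98 (n = 2), 198 ± 31.0 and 194 ± 9.94 CPM (n = 3 each). The 6 stage differences ran from −0.13 to 0.17 on the log2 scale with SE of 0.16 to 0.28, and none was called (edgeR adjusted p of 0.590 or above). Part of its exons overlaps the antisense gene Gm17110.

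Bambi (ENSMUSG00000024232, chromosome 18, 3507923 to 3516404, plus strand), the pseudoreceptor gene, split mock skin in the opposite way to Bmp3. Mock fl/fl libraries held 101.5, 2.93 and 4.24 CPM and mock ΔK14 libraries 79.9 and 6.11 CPM. Treated libraries held 31.9, 29.3 and 60.1 CPM in fl/fl and 89.2, 39.8 and 16.5 CPM in ΔK14. Tumors held 4.51, 7.46 and 4.90 CPM in fl/fl and 4.46, 3.26 and 3.79 CPM in ΔK14. Every treated library lay above every tumor, and the high mock library of each genotype was again replicate 1. Against treated skin Bambi fell by 2.83 in fl/fl tumors (SE 0.38, edgeR adjusted p = 0.00325) and by 3.76 in ΔK14 tumors (SE 0.60, edgeR adjusted p = 0.00238). A single fit of all libraries did not call the fl/fl fall (edgeR adjusted p = 0.0962).

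Against mock skin Bambi was called lower in ΔK14 tumors (−3.59, SE 0.91, edgeR adjusted p = 0.0448), and this rested on mock replicate 1. Without that library the difference was −0.71 (edgeR adjusted p = 0.298), and the call was also lost without any 1 of the 3 tumors (edgeR adjusted p from 0.135 to 0.160). In fl/fl the difference was −2.71 (SE 1.29, edgeR adjusted p = 0.227) and 0.64 without mock replicate 1. From mock to treated fl/fl skin the change was 0.15 (SE 1.24, edgeR adjusted p = 0.994), and without mock replicate 1 Bambi was called higher (3.48, edgeR adjusted p = 0.00206). Between tumor genotypes Bambi was lower in ΔK14 without overlap (−0.73, SE 0.36, described without a test).

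In mock skin Bambi was high and Bmp3 low where the growing-follicle markers named above were high. The same libraries were low in keratinocyte and bulge markers and high in melanocyte markers, and these sets cannot be told apart here. Where those 6 markers summed to 1532 and 1578 CPM, Bambi stood at 101.5 and 79.9 CPM and Bmp3 at 3.32 and 2.70 CPM. Where they summed to 10.7 to 16.5 CPM in mock skin, Bambi stood at 2.93 to 6.11 CPM and Bmp3 at 37.0 to 76.1 CPM. Of the other members, Bmp6, Bmp8a and Gdf10 were also higher in CPM, and Bmp2 and Nog lower, in mock replicate 1 than in the rest of mock skin of the same genotype. For Gdf10 this rests on 5 counts in fl/fl and 8 in ΔK14, and for Nog on 4 and 2. Tumors held 14.5, 69.9 and 7.51 CPM of the markers in fl/fl and 5.58, 6.52 and 4.74 CPM in ΔK14, so every ΔK14 tumor lay below every fl/fl tumor in the markers and above every fl/fl tumor in Bmp3. In ΔK14 tumors against treated skin all 6 markers were called lower, and in fl/fl tumors 5 of 6. The part of these cells in the changes of any member was not tested.

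**Figure D3:**
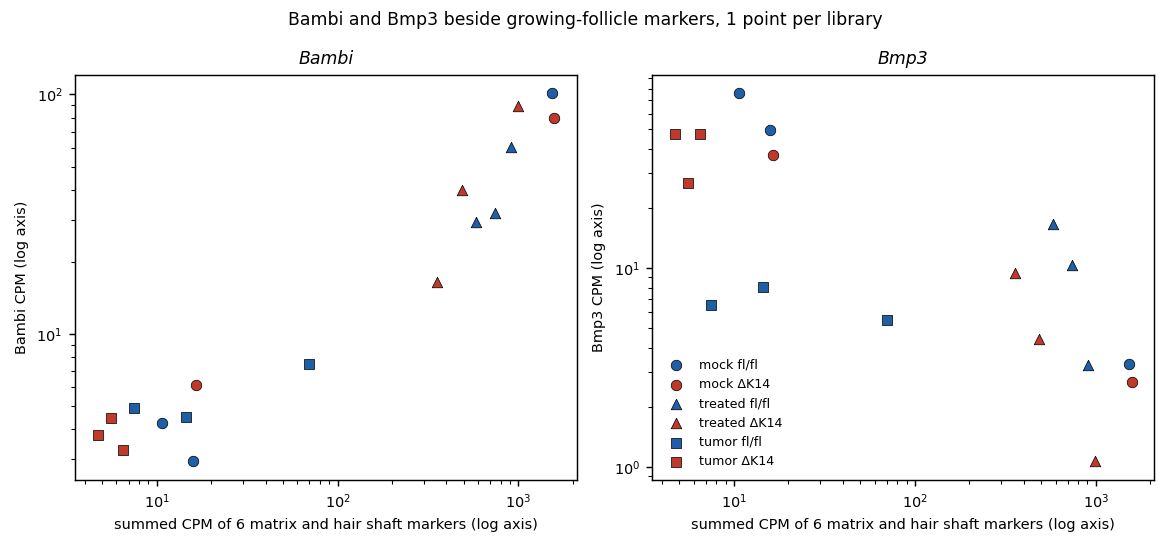
CPM of Bambi (left) and Bmp3 (right) against the summed CPM of 6 matrix and hair shaft markers, both axes logarithmic, with 1 point per library, shape for stage and color for genotype. Bambi was highest where the markers were highest, and the fl/fl tumors (5.48 to 8.01 CPM of Bmp3) lay below the ΔK14 tumors in Bmp3 and above them in the markers.

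Nog (ENSMUSG00000048616, chromosome 11, 89300638 to 89302332, minus strand) encodes noggin, the secreted antagonist of BMP2, BMP4 and BMP7. It was near the limit of detection and was not tested in any comparison. Mock fl/fl libraries held 4, 4 and 8 counts, mock ΔK14 libraries 2 and 2, treated fl/fl libraries 4, 1 and 5 and treated ΔK14 libraries 3, 1 and 6. Fl/fl tumors held 0, 7 and 1 counts and ΔK14 tumors 5, 13 and 7. In CPM the ΔK14 tumors (1.12, 2.35 and 1.33) lay above all other libraries, the next being fl/fl tumor replicate 2 at 1.07 CPM.

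Between genotypes, the groups of a few members did not overlap. In mock skin 1 of 7 tested members (Bmp4, higher in ΔK14) did not overlap, beside 12.5% of all genes. In treated skin it was 1 of 9 (Gdf10), beside 11.7%, and in tumors 2 of 7 (Bmp3 and Bambi), beside 17.9%. Since the members were chosen on this contrast, nothing is read from these counts. Apart from Bmp3, Gdf10 and Bmp2, the fitted differences in treated skin and tumors ran from −0.73 to 0.35 on the log2 scale.

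The other genes of the pathway were followed with a list of 65 in 6 roles, of which 40 to 44 passed the count filter in each comparison. Between genotypes edgeR called 0 of 42, 0 of 44 and 0 of 40 in mock skin, treated skin and tumors, where 0%, 0.00616% and 0.0284% of all genes were called, with 1, 3 and 8 of the list at an unadjusted p under 0.05 and with 0, 0 and 1 list calls by DESeq2. Treated against mock skin likewise gave 0 of 43 in fl/fl and 0 of 44 in ΔK14, with 2 at an unadjusted p under 0.05 and 1 call by DESeq2 in each. Tumors gave more calls. Against mock skin 1 of 40 was called in fl/fl and 9 of 41 in ΔK14 (6 higher, 3 lower), and against treated skin 10 of 41 in fl/fl (1 higher, 9 lower) and 20 of 43 in ΔK14 (7 higher, 13 lower). The shares of all genes called in these 4 comparisons were 4.11%, 14.3%, 18% and 26%, those called higher being 7.05% in ΔK14 tumors against mock skin and 7.5% in fl/fl tumors against treated skin. Leaving out mock fl/fl replicate 1 gave 14 list calls between treated and mock fl/fl skin and 11 in fl/fl tumors against mock skin, the latter being 0 without mock fl/fl replicate 2 and 2 without tumor replicate 1 (3.65% of all genes). The count in ΔK14 tumors against mock skin was 14 without mock replicate 1, 17 without mock replicate 2 and 2 without any 1 of the tumors. Without replicate 1 of treated fl/fl skin, 5 were called in fl/fl tumors against treated skin (7.21% of all genes), and without fl/fl tumor replicate 1, 7 were called between tumor genotypes (16.9%). The list's median change against treated skin was −0.28 in both genotypes, beside −0.02 and −0.03 for all genes tested.

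Among secreted antagonists, Fst, the gene of follistatin, which binds activins and several BMPs, rose in tumors of both genotypes. Its level was 49.8 ± 8.77 CPM in mock and 64.8 ± 10.9 CPM in treated fl/fl skin against 475 ± 158.5 CPM in fl/fl tumors (SD, n = 3 each). In ΔK14 mice it went from 46.4 ± 4.62 CPM (n = 2) and 67.7 ± 9.24 CPM to 1132 ± 291 CPM (n = 3). The change against treated skin was 2.84 (SE 0.28, edgeR adjusted p = 0.00132) in fl/fl and 3.96 (SE 0.25, edgeR adjusted p = 0.000165) in ΔK14. Against mock skin it rose by 3.22 in fl/fl tumors (SE 0.33, edgeR adjusted p = 0.00671), where it was the only list gene called, and by 4.51 in ΔK14 tumors (SE 0.37, edgeR adjusted p = 0.00461). Between tumor genotypes Fst differed by 1.12 (SE 0.28) without overlap and was not called (edgeR adjusted p = 0.209). Bmper, a crossveinless-type BMP regulator, was called lower in tumors of both genotypes against treated skin. The edgeR adjusted p was 0.0127 in fl/fl and 0.00175 in ΔK14. Summed over 3 libraries each, Bmper held 119 counts in treated fl/fl skin and 5 in fl/fl tumors. In ΔK14 mice it held 123 and 1. Tumor libraries held at most 0.761 CPM in fl/fl and 0.181 CPM in ΔK14. Bmper passed the count filter through the treated libraries, and the size of its fall, set by near-absent tumor counts, is not given. In all, 4 of 9 tested antagonists were called in fl/fl tumors against treated skin (1 higher, 3 lower) and 3 of 9 in ΔK14 (1 higher, 2 lower), with Bmper among the lower ones. Of all genes 7.5% were called higher and 10.5% lower in fl/fl, and 10.5% higher and 15.5% lower in ΔK14.

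Of 4 tested enzymes that process ligands or chordin, 3 were called higher (Furin, Bmp1, Tll1) and 1 lower (Pcsk6) in ΔK14 tumors against treated skin, beside 10.5% of all genes called higher and 15.5% lower. In fl/fl tumors 0 of 4 were called, beside 7.5% and 10.5%. Furin, a proprotein convertase that cleaves BMP precursors, went from 97.5 ± 1.97 CPM in treated ΔK14 skin to 260 ± 14.7 CPM in tumors (n = 3 each; 1.32, SE 0.16, edgeR adjusted p = 0.000856). In fl/fl mice it stood at 127 ± 6.88 and 161 ± 30.7 CPM. The difference between genotypes in these steps, tested after the values were seen, was 1.02 on the log2 scale for Furin (SE 0.23, edgeR adjusted p = 0.196). It was not called for any of the 4 enzymes (edgeR adjusted p from 0.196 to 0.467), so they are not shown to differ between genotypes. Against mock skin Furin rose by 1.72 in ΔK14 tumors (SE 0.25, edgeR adjusted p = 0.0124). Tll1, a tolloid-like protease that cuts chordin, was called higher there (edgeR adjusted p = 0.00749). It held 4 counts in mock ΔK14 skin and 349 in ΔK14 tumors. Since it passed the count filter through the tumors, the size of its rise is not given. Tll1 also lay above mock skin without overlap, though not called, in treated fl/fl skin (edgeR adjusted p = 0.0585), treated ΔK14 skin (0.701) and fl/fl tumors (0.0593).

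Among receptors and SMAD genes the calls went in both directions. In ΔK14 tumors against treated skin, Bmpr1b and Acvr1 were called higher and Acvr2b and Rgma lower among 9 receptors and co-receptors, and Smurf1, a ubiquitin ligase that targets SMADs, rose by 1.58 (SE 0.22, edgeR adjusted p = 0.00150) while Smad6 and Smad9 were called lower among 10. Smad9 held 44 counts in treated ΔK14 skin and 4 in ΔK14 tumors, and it passed the count filter through the treated libraries. In fl/fl tumors 2 of 9 receptors and co-receptors were called lower (Acvr2b and Rgma) and 0 of 10 SMAD genes and inhibitors. Beside these counts, 10.5% of all genes were called higher and 15.5% lower in ΔK14, and 7.5% and 10.5% in fl/fl. Acvr2b, a type II receptor, was also lower in ΔK14 tumors than in mock skin (−1.99, SE 0.43, edgeR adjusted p = 0.0317). Among the ligands outside the 10 genes no call was made, and at most 3 of 14 were tested in any comparison.

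BMP target genes were the role with the most lower calls in tumors. In tumors against treated skin 4 of 8 were called lower in fl/fl and 6 of 8 in ΔK14, none higher, with medians of −1.69 and −2.22 on the log2 scale. Of all genes 10.5% and 15.5% were called lower in these comparisons. Dlx3, a homeobox gene of hair and epidermis, stood at 138 ± 28.1 CPM in treated and 3.71 ± 1.53 CPM in tumor fl/fl cells (n = 3 each; −5.16, SE 0.34, edgeR adjusted p = 0.000589), and at 120 ± 83.7 and 3.41 ± 1.28 CPM in ΔK14 (−5.21, SE 0.55, edgeR adjusted p = 0.000520). Msx2, a homeobox gene of the hair matrix, fell by 5.21 (SE 0.45, edgeR adjusted p = 0.00116) and by 4.90 (SE 0.59, edgeR adjusted p = 0.000883). Id4 fell by 2.98 in fl/fl (SE 0.29, edgeR adjusted p = 0.00130). Not called in fl/fl were Id1 (−0.18, edgeR adjusted p = 0.695), Id2 (−1.09, 0.0574), Id3 (−0.73, 0.0553) and Hey1, which was above 0 (0.42, 0.664). Against mock skin 2 of 8 targets were called lower in ΔK14 tumors (7.22% of all genes), among them Id3 (−1.56, SE 0.30, edgeR adjusted p = 0.0237), and 0 of 8 in fl/fl (1.88%). Msx2 also belongs to the growing-follicle markers, of which 5 of 6 and 6 of 6 were called lower in the same comparisons with medians of −4.82 and −7.28, and the part of follicle cells in the fall of the targets was not tested.

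**Figure D4:**
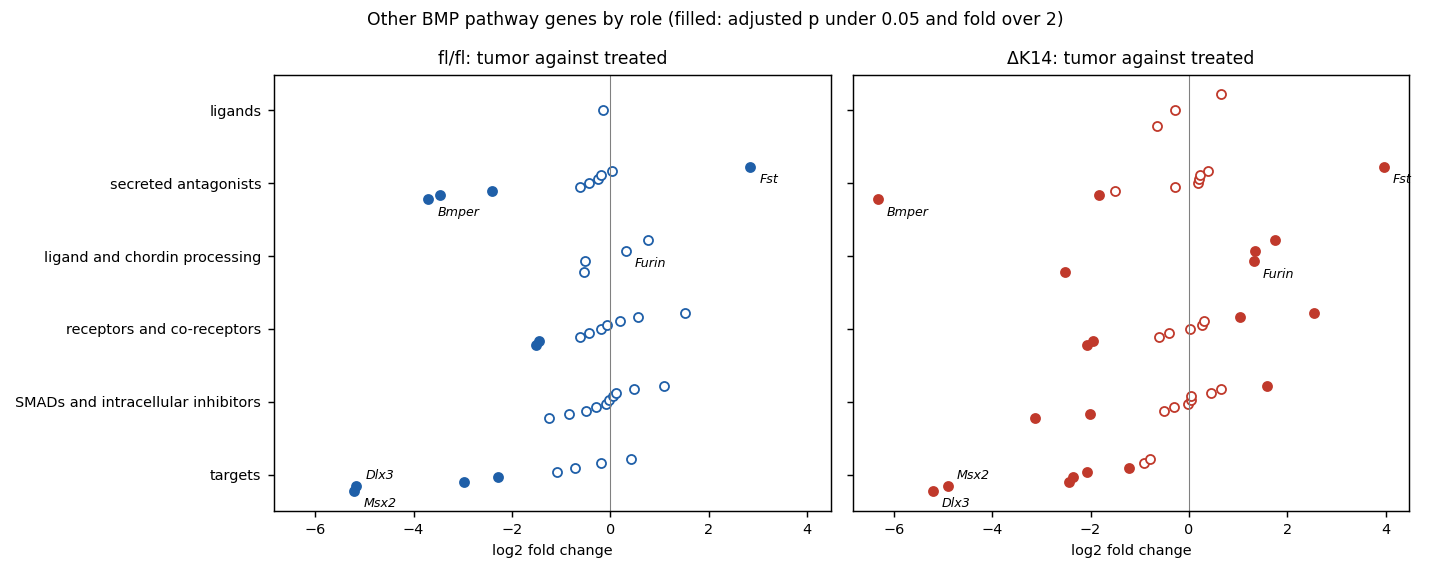
Fitted log2 fold change of the 65 listed genes that passed the filter, tumor against treated skin, by role, in fl/fl (left) and ΔK14 (right) mice, with 1 point per gene, filled where called. Target genes lie to the left of 0 in both panels except Hey1 in fl/fl (0.42). Fst lies to the right at 2.84 and 3.96, and the processing enzymes are filled in ΔK14 and open in fl/fl.

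Between genotypes, the list genes with the smallest p were named by rule, and none was called. In mock skin they were the convertase gene Pcsk6 (−0.95, SE 0.32), Smad5 (−0.59, SE 0.33) and the type II receptor gene Bmpr2 (−0.50, SE 0.31), with edgeR adjusted p of 1.0 for each. In treated skin they were the antagonist gene Nbl1 (−1.03, SE 0.33), Furin (−0.40, SE 0.14) and the endoglin gene Eng (−0.93, SE 0.36), each with an edgeR adjusted p of 0.897. In tumors they were Fst, the type I receptor gene Bmpr1b (1.75, SE 0.52, edgeR adjusted p = 0.243) and Id3 (−0.63, SE 0.22, edgeR adjusted p = 0.267). All of these differences are ΔK14 against fl/fl.

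Over the 17 libraries, the genes most like Bmp3 by Pearson's r of log2 CPM among 18252 genes were C77080 (0.964), Slc16a9 (0.958) and Sema3c (0.956). For Gdf10 they were Gm42609 (0.877), Astn2 (0.871) and Neil2 (0.841), all resting on few Gdf10 counts. Bambi was most like the keratin gene Krt26 (0.979), followed by Fut4 (0.974) and the hair keratin-associated gene Krtap8-1 (0.971). Bmp4 was most like Ier2 (0.947) and Spry1 (0.947), and then its overlapping neighbor Gm15217 (0.946). These values rank likeness across stages and genotypes together, and each was taken over the same libraries.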

How the data were processed

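RNA-Seq measured mRNA in 3 stages of mouse epidermal cells from fl/fl and ΔK14 mice, each stage with triplicate columns. The authors deposited raw counts per gene, without normalization. Their libraries used the Ovation SoLo RNA-Seq system on an Illumina HiSeq, and the submitters' processing notes name Trimmomatic 0.36, STAR 2.5.3, HTSeq 0.9.1, DESeq2 and mm10, whereas the study states edgeR. The sources used here do not give the annotation release, whether strand was used or whether duplicates were removed, so overlapping and near-identical genes are uncertain, and intervals cover counting error only. Total counts were 2808550 to 9617985.

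For each comparison its own libraries were fitted with edgeR 4.0.16 under R 4.3.3 and limma 3.58.1, with filterByExpr defaults (minimum count 10, minimum total 15), TMM scaling, the two-sided quasi-likelihood F test and Benjamini-Hochberg adjustment over all genes tested. Calls needed an adjusted p under 0.05 and a fold over 2. CPM used TMM-scaled totals. The procedure was run on simulated counts that gave every gene the same dispersion and held no deviating library. That run does not bear on the effects of single libraries. Alternatives were DESeq2 1.42.0, RLE scaling, no low-count filter, a single fit of all libraries, a replicate block and each library left out. Positions, exon lengths and 3′UTRs came from a GENCODE annotation of GRCm38 (mm10).

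The 10 genes, the list of 65 and the marker lists were chosen with earlier results of these data known. All 10 genes are named. Of the list, those called between stages without overlap are named, up to 3 in each direction by smallest p, and between genotypes the 3 with the smallest p. Bmp1, Pcsk6, Bmpr1b, Acvr1, Acvr2b, Rgma, Smad6 and Smad9 in some comparisons, and the difference of steps for the 4 processing enzymes, were named after their values were seen. For likeness the 3 genes with the highest r are given, as planned for Bmp3 and Gdf10 and added for Bambi and Bmp4. Markers of other cells were summed in CPM.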

Additional observations from a re-analysis of the deposited data

Results flagged for a closer look

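Of the pathway list, Pcsk6, a proprotein convertase gene, differed between mock and treated skin in opposite directions in the genotypes. From mock to treated skin it went from 14.7 ± 1.86 to 9.53 ± 3.40 CPM in fl/fl (SD, n = 3 each) and from 7.59 ± 1.09 (n = 2) to 14.4 ± 3.72 CPM (n = 3) in ΔK14. Every treated fl/fl library lay below every mock fl/fl library, and every treated ΔK14 library above every mock ΔK14 library. The difference of these changes was 1.51 on the log2 scale (SE 0.48), and it was not called by the quasi-likelihood test of the interaction (edgeR adjusted p = 1.0, unadjusted p = 0.0105), an alternative added after seeing the data.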

How the results depend on the processing

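The member changes under all alternatives were tallied without the genotype differences of Bmp3 and Gdf10. Of these, 633 were unchanged, 16 stage changes passed the threshold newly, 13 no longer passed it and 32 turned sign. A stage change was unchanged if it kept its direction and side of the threshold. An untested genotype difference was unchanged if it moved by less than the spread, whatever its sign, and 7 moved by more. Among the 10 genes DESeq2 called 2 in treated against mock fl/fl skin and 2 in fl/fl tumors against mock skin, beside 0.711% and 14.3% of all genes. Without a low-count filter 3 were called in fl/fl tumors, 1 in treated ΔK14 skin and 4 in ΔK14 tumors, each against mock skin. The shares of all genes were 7.64%, 0.654% and 13.1%. A single fit of all libraries called 1 in ΔK14 tumors against mock skin, beside 16.8% of all genes. Of the pathway list, DESeq2 called 1 and 1 in treated against mock skin of fl/fl and ΔK14 mice, 7 and 15 in fl/fl and ΔK14 tumors against mock skin and 1 between tumor genotypes. In that order it called 0.711%, 0.447%, 14.3%, 18.7% and 2.6% of all genes. The same list counts without a filter were 1, 1, 10, 20 and 3, beside 0.0883%, 0.654%, 7.64%, 13.1% and 4.27% of all genes. The single fit gave 7 in fl/fl tumors against mock skin (17.6% of all genes) and 1 between tumor genotypes (0.668%). Bmpr1a in fl/fl tumors turned sign at very small changes, to 0.0157 by DESeq2, 0.0143 with RLE scaling and 0.0230 in the single fit against mock skin, and to 0.0120 in the single fit against treated skin. The causes of these shifts were not tested.

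With the replicate number as a block, 0 members were called in fl/fl tumors against mock skin, beside 1.59% of all genes. In ΔK14 tumors against mock skin 1 member and 4 list genes were called, beside 6.24%. Signs turned for Bmp6 in fl/fl tumors (0.107) and in treated ΔK14 skin (0.0402) and for Bmp7 in treated ΔK14 skin (−0.110), all against mock skin. The labels do not say that a number marks a shared animal or day, and in none of the comparisons with 3 pairs did every pair's deviations correlate above 0.1, as in treated against mock fl/fl skin (−0.0791, 0.391 and −0.359), so the numbers were taken as names and not as a pairing. The comparisons with mock ΔK14 skin have 2 pairs. The mock genotypes correlated at 0.782 and 0.568, treated against mock ΔK14 skin at 0.569 and 0.141, and ΔK14 tumors against mock skin at 0.0943 and 0.124. With 2 pairs these values do not settle whether the numbers mark a pairing there.

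With single libraries left out, calls among the 10 genes ran from 0 to 5 in treated against mock fl/fl skin, 0 to 2 in fl/fl tumors against mock skin, 2 to 3 against treated skin, and 0 to 4 in ΔK14 tumors against mock skin. List calls ran in the same order from 0 to 14, 0 to 11, 5 to 13 and 2 to 17, and from 0 to 7 between tumor genotypes. The share of all genes called in these fits ran from 0% to 15.1% in treated against mock fl/fl skin. It ran from 0.181% to 21% in fl/fl tumors against mock skin and from 7.21% to 24.3% against treated skin. Between tumor genotypes it ran from 0% to 16.9%. In ΔK14 tumors against mock skin it ran from 0.709% to 2.75% where no mock library was left out. Where 1 mock ΔK14 library was left, it was assumed to vary like the other group. Signs turned for changes not called with all libraries. Bmp2 ran from −0.47 to 0.89 in fl/fl tumors against treated skin. Bmp6 ran from −0.54 to 0.56 in fl/fl tumors, −0.57 to 0.48 in treated ΔK14 skin and −0.98 to 0.25 in ΔK14 tumors against mock skin, and from −0.76 to 0.12 in ΔK14 tumors against treated skin. Bmp7 ran from −0.0568 to 0.28 and from −0.11 to 0.31 in treated against mock skin of fl/fl and ΔK14 mice, and in that ΔK14 comparison Bmp8a ran from −0.10 to 0.86 and Bmp3 from −2.88 to 0.91. Between mock genotypes Bmp3 ran from −3.99 to −0.18. Bmpr1a ran from −0.0307 to 0.10 in treated and −0.13 to 0.20 in tumor against mock fl/fl skin, −0.14 to 0.19 in fl/fl tumors against treated skin and −0.0083 to 0.20 in ΔK14 tumors against mock skin. Bambi ran from −0.38 to 3.48 in treated fl/fl skin, −3.25 to 0.64 in fl/fl tumors and −0.68 to 2.99 in treated ΔK14 skin, each against mock skin. Nog and many Gdf10 counts were below what this depth can test.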
